A study of Homo sapiens with 4 samples.

Results

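Spliceosome and splicing regulator genes were followed in A549 cells, a line from a human lung adenocarcinoma, after delivery of a miR-509-3p mimic. A gene was taken as a member if its symbol, as annotated or as updated, began with SFRS, SRSF, SF3A, SF3B, PRPF or RBM followed by its number or, without that condition, with HNRP, HNRNP, SNRP or U2AF, or if it was SF1, UHMK1, SRPK1 or SRPK2. It also needed a probe that 2 or more of the 4 arrays detected at a p under 0.01. Of 116 genes with such a name, 105 met this condition, out of 10239 genes measured. The remaining 11, among them SF3A1, RBM8A and PRPF39, were detected on 0 arrays and are not described further.

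The series held 2 arrays of cells transfected with miR-509-3p mimic and 2 of cells transfected with negative control mimic, all grown in RPMI-1640 with serum, transfected with Lipofectamine RNAiMAX and harvested after 24 hours. A mimic is a synthetic RNA that enters the silencing complex as the mature miRNA does, and the control cells went through the same transfection. The sources used here do not give the mimic dose, and no untransfected cells were analysed here. Each array was an Illumina bead array read for 47320 probes, of which 33.7% to 34.7% were detected. Normalized log2 signals correlated across genes at r = 0.994 between the control arrays, 0.996 between the mimic arrays and 0.967 to 0.968 across groups. The epithelial origin of the line was checked with 9 markers, of which KRT7, KRT8, KRT19, EPCAM, CDH1 and MUC1 were measured, while KRT18 and the alveolar markers NKX2-1 and SFTPB had no kept probe. Kept probes covered 2 of 8 fibroblast, 1 of 6 endothelial and 2 of 8 leukocyte markers, and PTPRC, PECAM1 and COL1A2, among others, had none.

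Pre-mRNA splicing removes introns in a machine built from small nuclear ribonucleoproteins (snRNPs). SF1 and the U2AF proteins first mark the branch point and the end of the intron, the U2 snRNP with its SF3A and SF3B subunits then takes over the branch point, and the U4/U6.U5 particle with its PRPF factors completes the active site. SR proteins mostly favour, and hnRNP proteins often hinder, the use of nearby splice sites, and kinases such as SRPK1, SRPK2 and UHMK1 set the activity of these factors by phosphorylation.

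The mature miRNA that the mimic stands for is shown because its seed, bases 2 to 8, is the part that chiefly selects targets. The sequence below is RefSeq's, with the seed in capitals.
hsa-miR-509-3p: uGAUUGGUacgucuguggguag
It is 22 bases long and is encoded at 3 loci on the minus strand of chromosome X (GRCh38.p14), MIR509-2 at chrX:147258775-147258796, MIR509-3 at chrX:147259662-147259683 and MIR509-1 at chrX:147260550-147260571. None of the other mature human miRNAs in that table, which holds 2370 names in all, has the same seed. The site that pairs with the whole seed reads ACCAAUC in an mRNA, and transcripts were not searched for it here.

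With the mimic, 18 of the 105 members were higher and 14 were lower, with the limma p adjusted over all genes by Benjamini-Hochberg and a threshold of 0.05, and 73 did not pass. That is 17.1% and 13.3% of the members, against 20.1% and 17.8% of all 10239 genes, or 30.5% called in either direction against 38.0%. The groups did not overlap for 66.7% of the members and for 72.9% of all genes. The median log2 difference of the members, mimic minus control, was 0.01 and that of all genes 0.04, and the median absolute difference was 0.17 against 0.25. The median log2 signal was 11.21 for the members and 9.90 for all genes. The part of signal level in these shares was not tested. Beside this, KRT7 and CDH1 fell and MUC1 rose, while KRT8, KRT19 and EPCAM did not pass. The fibroblast marker THY1 and the leukocyte markers CD14 and CD68 rose, and the endothelial marker ESAM fell. THY1 read 7.18 and 7.31 on the control arrays, where the lowest detected signals were 6.83 and 6.73. COL1A1, the other measured fibroblast marker, did not pass. The part of these markers in the members' values was not tested. In bulk RNA, a smaller number of cells of a type and less RNA per cell cannot be told apart.

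**Figure D1:**
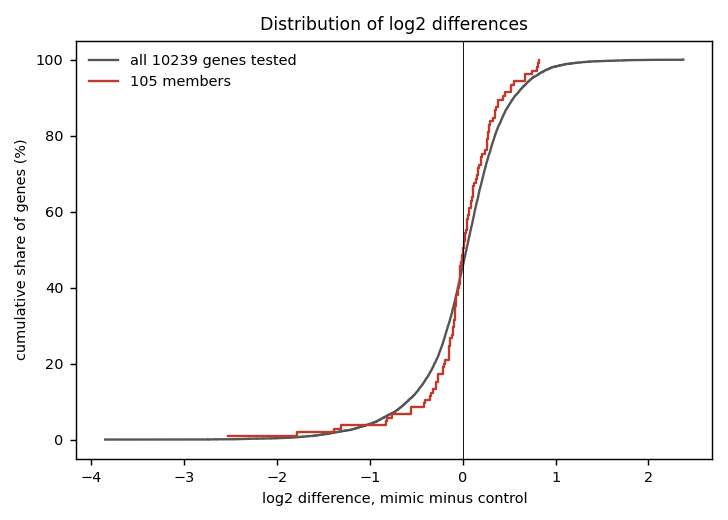
Cumulative share of genes (%) against the log2 difference, mimic minus control, for the 105 members (red) and all 10239 genes tested (grey). The members' curve rises more steeply near 0, with a median of 0.01 against 0.04, and its lowest value is that of UHMK1 at -2.52.

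Calls were lost when an array was left out. This leaves 1 array in a group, so a loss from having fewer arrays and one due to the array itself cannot be told apart. Without control 1, control 2, mimic 1 and mimic 2 in turn, 19, 20, 13 and 15 of the 32 called members still passed, and all 32 kept their sign each time. With the arrays scaled to a common median instead of equal quantiles, 11 members were higher and 15 lower, instead of 18 and 14. The balance of directions among the members thus depended on the scaling. The called share of all genes under median scaling is not given here, so the shift cannot be read as particular to the members. With equal quantiles, all genes also had more higher than lower calls, 2060 against 1826. Nothing in the labels says whether the replicate arrays were hybridized with RNA of different cultures. The p-values thus cover the spread between arrays alone, and that spread may be technical. Below, a gene is said to hold under all alternatives if it passed with each array left out and under 10 further changes of processing.

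Among the kinases, UHMK1 showed the widest difference of all members. UHMK1 (also called KIS) phosphorylates SF1 and so promotes its joint binding with U2AF2 at the 3′ splice site. It read 13.03 and 12.90 (log2 signal) with the control and 10.40 and 10.49 with the mimic. Both mimic arrays lay far below both controls. UHMK1 fell by 2.52 ± 0.09 (estimate ± limma SE, n = 2 each), or 5.75-fold (limma adjusted p = 0.00126). Each SE given here rests on a variance that limma took in part from the other genes. The second kept probe of UHMK1 was detected on both control arrays and on neither mimic array, so no size is given for it. The call held under all alternatives. Both SR protein kinases had values that did not pass. SRPK1, which phosphorylates SR proteins for import into the nucleus, had 11.81 and 11.76 with the control and 12.08 and 11.84 with the mimic, a difference of 0.17 ± 0.10 (limma adjusted p = 0.247). SRPK2, its close relative, had 7.57 and 7.32 against 7.42 and 7.46, a difference of -0.0029 ± 0.11, and its groups overlapped. A dimmer SRPK2 probe was detected on both mimic arrays and on neither control array. It was kept through the mimic arrays alone, so no size is given.

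The substrate of UHMK1 and its partners were measured as well. SF1, which binds the branch point sequence, had log2 signals of 8.11 and 7.63 with the control and 7.48 and 7.95 with the mimic. These groups overlapped, and the difference of -0.15 ± 0.23 did not pass. U2AF2, the large U2AF subunit that binds the polypyrimidine tract, had 13.37 and 13.20 against 13.02 and 12.98. The mimic arrays lay below the controls, but the difference of -0.28 ± 0.09 did not pass (limma adjusted p = 0.0601). U2AF1, the small subunit that reads the AG at the end of the intron, had 10.23 and 10.24 against 10.64 and 10.74. It rose by 0.45 ± 0.08 (limma adjusted p = 0.0124), which was 1.37-fold, and it lost the call without mimic 1 (limma adjusted p = 0.0518) and without mimic 2 (0.0743). The second kept probe of U2AF1 was not called in a fit of every kept named probe. U2AF1 has a near-identical copy in the reference genome, from which a probe may not tell it apart. U2AF1L4, a shorter relative of U2AF1, differed by -0.08 ± 0.08 and did not pass.

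Subunits of SF3B, the part of the U2 snRNP that holds the branch point, moved in opposite directions. SF3B4, which contacts the pre-mRNA upstream of the branch point, had log2 signals of 13.13 and 13.04 with the control and 11.37 and 11.25 with the mimic. The groups were well apart, and SF3B4 fell by 1.78 ± 0.08, or 3.43-fold (limma adjusted p = 0.00126). SF3B5, a small core subunit, had 11.93 and 12.05 against 11.14 and 11.22 and fell by 0.81 ± 0.08, or 1.76-fold. SF3B2, the direct binding partner of SF3B4, had 11.94 and 12.03 against 12.66 and 12.67. It rose by 0.67 ± 0.07, or 1.60-fold (limma adjusted p = 0.00451). These 3 calls held under all alternatives and made up 37.5% of the 8 SF3A and SF3B genes, against 38.0% called among all genes. The other 5 measured SF3A and SF3B genes did not pass and lay between -0.20 and 0.20. Among them was SF3B1, the large scaffold subunit, at 12.45 and 12.49 against 12.66 and 12.69. Its difference was 0.20 ± 0.07 (limma adjusted p = 0.0791). Its second, dimmer probe was higher by 0.55 ± 0.11. PHF5A, a further SF3B subunit outside the member rule, had 10.49 and 10.50 against 11.24 and 11.20 and rose by 0.73 ± 0.07.

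**Figure D2:**
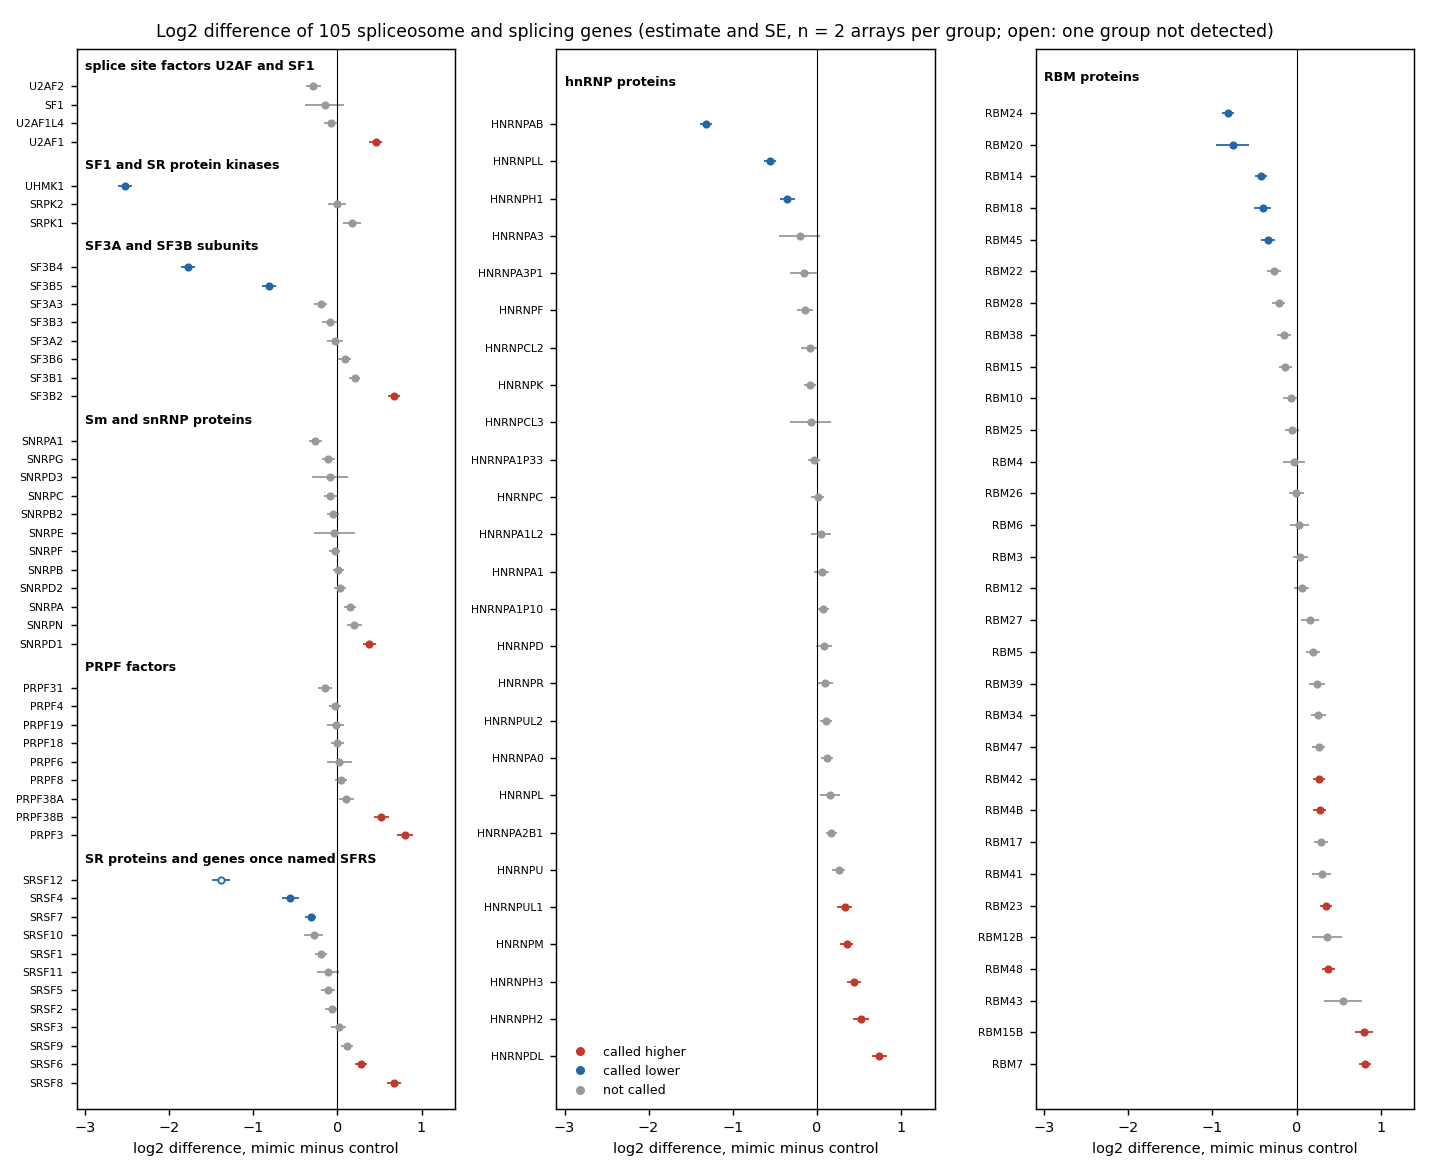
Log2 difference, mimic minus control, of each of the 105 members by role. Bars give the limma SE (n = 2 arrays per group, variance taken in part from other genes) and colour the call at an adjusted p under 0.05. UHMK1 at -2.52, SF3B4 at -1.78 and HNRNPAB at -1.31 stand apart on the left. The open point is SRSF12, whose size is known only as a bound since its probe was not detected with the mimic. Among Sm and snRNP proteins 11 of 12 did not pass, against 6353 of all 10239 genes.

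Most genes of the snRNP core did not pass, as was so for 6353 of all 10239 genes. Of 12 Sm and snRNP protein genes, 1 rose and 11 did not pass, or 8.3% called against 38.0% of all genes. The gap between these shares rests on 12 genes and was not tested. Their median difference was -0.04, with uncalled values between -0.26 and 0.20. The riser was SNRPD1, a subunit of the Sm ring that encircles snRNAs, with 9.61 and 9.74 against 10.06 and 10.05. It rose by 0.38 ± 0.08 (limma adjusted p = 0.0231), a call lost without control 1 (limma adjusted p = 0.0723), mimic 1 (0.110) and mimic 2 (0.107). The other Sm ring genes SNRPB, SNRPD2, SNRPD3, SNRPE, SNRPF and SNRPG had differences from -0.11 to 0.03. For SNRPE (-0.04 ± 0.24) and SNRPD3 (-0.09 ± 0.21) the SE was wide, so a change as large as that of SNRPD1 could be missed. SNRPN, the relative of SNRPB, had 0.20 ± 0.09, with the mimic arrays above the controls. Of the U1 proteins, SNRPA differed by 0.15 ± 0.07 and SNRPC by -0.08 ± 0.08. Of the U2 proteins, SNRPA1 differed by -0.26 ± 0.08 (limma adjusted p = 0.0582) and SNRPB2 by -0.05 ± 0.07. None of these passed.

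The 9 PRPF genes encode factors of the later spliceosome, and 2 of them rose while 7 did not pass. The called share was 22.2%, against 38.0% of all genes. PRPF3, a protein of the U4/U6 snRNP, had 11.60 and 11.41 with the control and 12.29 and 12.33 with the mimic. It rose by 0.81 ± 0.09, or 1.75-fold (limma adjusted p = 0.00493), and held under all alternatives. PRPF38B, at 8.18 and 8.11 against 8.75 and 8.58, rose by 0.52 ± 0.09. Its call was lost without control 2 (limma adjusted p = 0.0573) and mimic 1 (0.0716). Uncalled PRPF values ran from -0.15 to 0.11 and included PRPF8, the large protein at the heart of the U5 snRNP, at 13.42 and 13.36 against 13.43 and 13.43.

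SR proteins were called in both directions, with 3 of 12 genes lower, 2 higher and 7 that did not pass. The called share was 41.7%, near the 38.0% of all genes, which were also called both ways (20.1% higher and 17.8% lower). SRSF12, which counteracts other SR proteins, had 7.15 and 7.33 with the control and 5.94 and 5.78 with the mimic. On both mimic arrays its probe was not well above background, so it was at least 1.41-fold lower there (limma adjusted p = 0.00206). The bound sets the control mean against the lowest detected signal of the mimic arrays. SRSF4 had 12.24 and 12.11 against 11.52 and 11.71 and fell by 0.56 ± 0.10 (limma adjusted p = 0.0156), and SRSF7 had 11.59 and 11.56 against 11.24 and 11.27 and fell by 0.32 ± 0.07. Both bind exonic enhancers. SRSF8, a close relative of SRSF2, had 10.66 and 10.70 against 11.29 and 11.42 and rose by 0.67 ± 0.08 (limma adjusted p = 0.00541). SRSF6 had 13.54 and 13.49 against 13.78 and 13.82 and rose by 0.28 ± 0.07, the narrowest of these differences. SRSF8 held under all alternatives. SRSF12 was kept because the control arrays detected it, so its call follows in part from the filter. The SRSF4 call was lost without control 1 (limma adjusted p = 0.0586) and mimic 1 (0.0788), and those of SRSF6 and SRSF7 whichever of the 4 arrays was left out, with adjusted p-values up to 0.155 and 0.119. Well-studied SR genes did not pass, with SRSF2 at 14.25 and 14.15 against 14.13 and 14.14, SRSF9 at 14.28 and 14.29 against 14.43 and 14.37, and SRSF1, the founding SR protein, at 13.72 and 13.71 against 13.47 and 13.58.

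Of the 26 hnRNP genes, 5 rose and 3 fell, and the remaining 18 did not pass. Their median difference was 0.06, and 30.8% of them were called, against 38.0% of all genes. HNRNPAB, an RNA-binding protein of the nucleus and cytoplasm, had 14.37 and 14.31 with the control and 13.04 and 13.01 with the mimic. It fell by 1.31 ± 0.07, or 2.49-fold (limma adjusted p = 0.0013). Its other kept probes fell by 1.64 ± 0.08 and 1.59 ± 0.09, so all 3 probes gave the same direction. HNRNPLL, known as a regulator of CD45 splicing in T cells, had 10.86 and 10.91 against 10.33 and 10.32 and fell by 0.56 ± 0.07. Both held under all alternatives.

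Relatives within the hnRNP family were called in different directions. Of the H group, which binds G-rich RNA, HNRNPH1 had 13.04 and 12.93 against 12.57 and 12.69 and fell by 0.35 ± 0.09. HNRNPH2 had 11.04 and 11.14 against 11.52 and 11.71 and rose by 0.53 ± 0.10, and HNRNPH3 had 11.47 and 11.33 against 11.86 and 11.81 and rose by 0.44 ± 0.08. The difference between these genes was not tested. In a fit of every kept named probe, HNRNPH1 and HNRNPH3 each had a further probe that was not called. HNRNPDL, which binds AU-rich RNA as HNRNPD does, had 9.82 and 9.72 against 10.44 and 10.59 and rose by 0.74 ± 0.09, whereas its second probe fell by 0.46 ± 0.12. With both probes averaged, HNRNPDL did not pass (difference 0.14, limma adjusted p = 0.294). HNRNPM had 13.88 and 13.98 against 14.27 and 14.29 and rose by 0.35 ± 0.08. HNRNPUL1 had 13.54 and 13.61 against 13.99 and 13.82 and rose by 0.33 ± 0.09 (limma adjusted p = 0.0454), and it passed in 5 of 14 alternatives. None of the 4 kept probes of HNRNPUL1 was called in the fit of every kept named probe.

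The hnRNP calls other than those of HNRNPAB, HNRNPLL and HNRNPDL were lost when some arrays were left out. HNRNPH1 and HNRNPUL1 lost theirs whichever of the 4 arrays was left out, with limma adjusted p-values up to 0.155 and 0.179. HNRNPH2 lost its call without control 1 (limma adjusted p = 0.0611) and mimic 2 (0.0774). HNRNPH3 lost it without control 2, mimic 1 or mimic 2 (up to 0.0991), and HNRNPM without control 1, mimic 1 or mimic 2 (up to 0.115). Uncalled hnRNP values ran from -0.21 to 0.26. HNRNPA1, HNRNPA3 and HNRNPC have close copies that the name rule also takes in (HNRNPA1L2, HNRNPA1P10, HNRNPA1P33, HNRNPA3P1, HNRNPCL2 and HNRNPCL3), so these signals may be shared between genes and are uncertain.

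**Figure D3:**
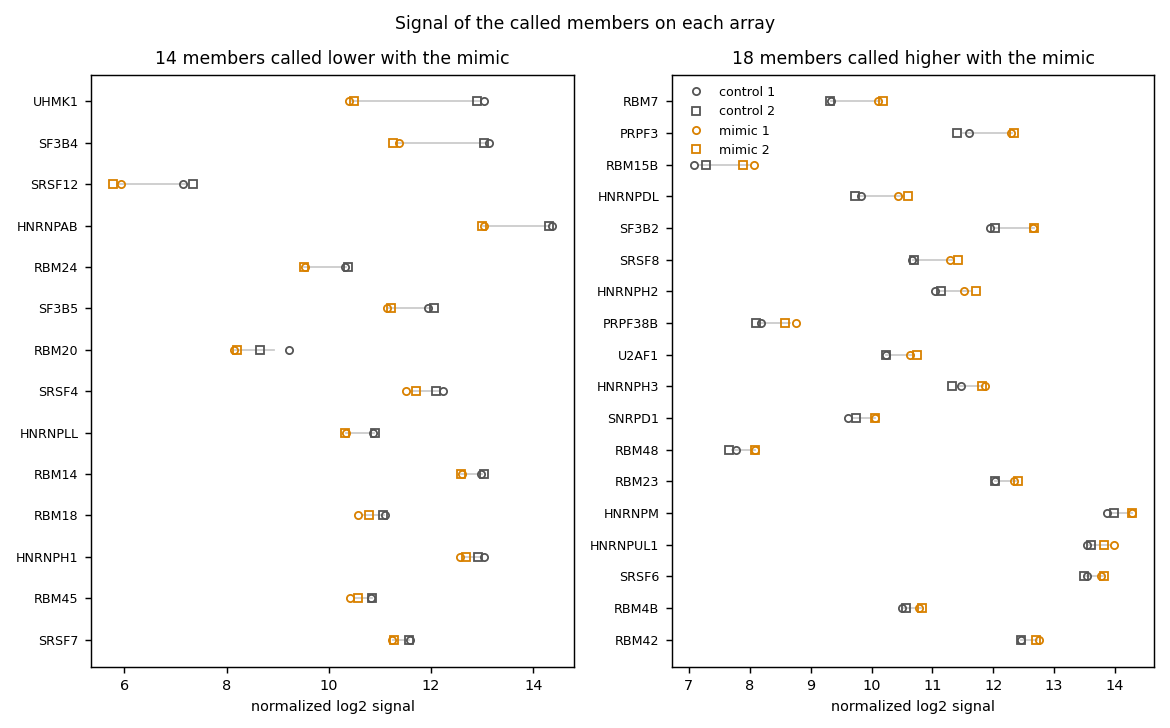
Normalized log2 signal of the 14 members called lower (left) and the 18 called higher (right) on each array, with control arrays in grey, mimic arrays in orange, and a line between the group means. UHMK1 moved from 13.03 and 12.90 to 10.40 and 10.49, and the RBM20 controls, at 9.22 and 8.65, lie apart from each other.

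The RBM genes share an RNA recognition motif and little else. Their called share was 35.5%, against 38.0% of all genes. Of the 31, 6 rose, 5 fell and 20 did not pass, with a median of 0.06. Of those that fell, RBM24, a regulator of muscle splicing, had 10.31 and 10.37 with the control and 9.54 and 9.51 with the mimic, a fall of 0.82 ± 0.07 (limma adjusted p = 0.00273). Its second probe fell by 0.79 ± 0.18. RBM20, which shapes titin splicing in heart muscle, had 9.22 and 8.65 against 8.14 and 8.20 and fell by 0.76 ± 0.20 (limma adjusted p = 0.0397). Its controls lay further apart than most, and the call was lost without mimic 1 (limma adjusted p = 0.161) and mimic 2 (0.142). RBM14, a coactivator found in paraspeckles, had 12.98 and 13.03 against 12.60 and 12.58 and fell by 0.42 ± 0.07, a call lost without mimic 1 (limma adjusted p = 0.0704) and mimic 2 (0.0767).

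Of the RBM genes that rose, RBM7, a subunit of the nuclear exosome targeting complex, had 9.34 and 9.32 against 10.11 and 10.19, a rise of 0.82 ± 0.07 (limma adjusted p = 0.00285). RBM15B, a partner of the m6A methyltransferase, had 7.08 and 7.27 against 8.07 and 7.89 and rose by 0.80 ± 0.11, with limma adjusted p = 0.0507 without mimic 1. RBM48, known from the minor spliceosome, had 7.77 and 7.65 against 8.09 and 8.09 and rose by 0.38 ± 0.08, a call lost without control 2, mimic 1 or mimic 2 (limma adjusted p up to 0.105). RBM7 and RBM24 held under all alternatives. The remaining called RBM genes, RBM18 and RBM45 lower and RBM4B, RBM23 and RBM42 higher, lost their calls whichever of the 4 arrays was left out. Their limma adjusted p-values reached 0.132, 0.146, 0.183, 0.108 and 0.171, in that order. Uncalled RBM values ran from -0.27 to 0.55, the highest being RBM43 at 7.61 and 6.95 against 7.81 and 7.85, with a difference of 0.55 ± 0.23. RBM43 was named after its values were seen.

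Of the 32 called members, 11 held under every one of the 14 alternatives that tested them. These were UHMK1, SF3B4, SF3B5, SF3B2, PRPF3, SRSF8, HNRNPAB, HNRNPLL, RBM24 and RBM7, together with SRSF12, which was tested under 13 of them. SRSF12 was kept through its control arrays alone, so its passing adds no support, and detection on all 4 arrays, which removes it, could not test it. Among the called members detected in both groups, UHMK1, SF3B4 and HNRNPAB had the widest differences. The threshold lies within a run of close values. Just inside it were RBM4B at an adjusted p of 0.0455 and HNRNPUL1 at 0.0454, and just outside RBM17 at 0.0526 and RBM47 at 0.0544 (all limma, Benjamini-Hochberg), which were picked after seeing their values.

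Several members had more than 1 kept probe, which can lie in different exons or transcript ends. There were 160 kept probes for the 105 members, and 39 members had 2 or more. In a fit of every kept named probe, which called 34.7% of all of them, 46 of the 55 further probes had the sign of the gene's brightest probe. In 15 of these pairs the brightest probe was called. The further probe was also called in 9 of the 15, in 8 of them with the same sign, and HNRNPDL was the exception. Further probes without a call, beside a called brightest probe, belonged to HNRNPH1, HNRNPH3, HNRNPM, RBM18 and U2AF1. The UHMK1 probe of these pairs and the SRPK2 probe below were kept through 1 group alone, and their calls follow in part from the filter. In another 9 pairs only the further probe was called. These were probes of HNRNPC (0.31), PRPF38A (0.39), RBM12 (0.32), RBM47 (0.38), SF3B1 (0.55) and SRPK2, which were higher, and of HNRNPK (-0.29), SNRPC (-0.27) and U2AF2 (-0.60), which were lower. The U2AF2 and SRPK2 probes averaged under log2 8 over the 4 arrays, as did 15 of the 55, so their sizes rest on levels near background. The same limit holds for brightest probes under log2 8, among them those of RBM15B (7.58), RBM48 (7.90), SF1 (7.79) and SRPK2 (7.44). Brightest and further probes were not called but differed in sign for HNRNPA1, HNRNPA2B1, RBM4 and SRSF10. Where the probes lie in each transcript was not analysed here.

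**Figure D4:**
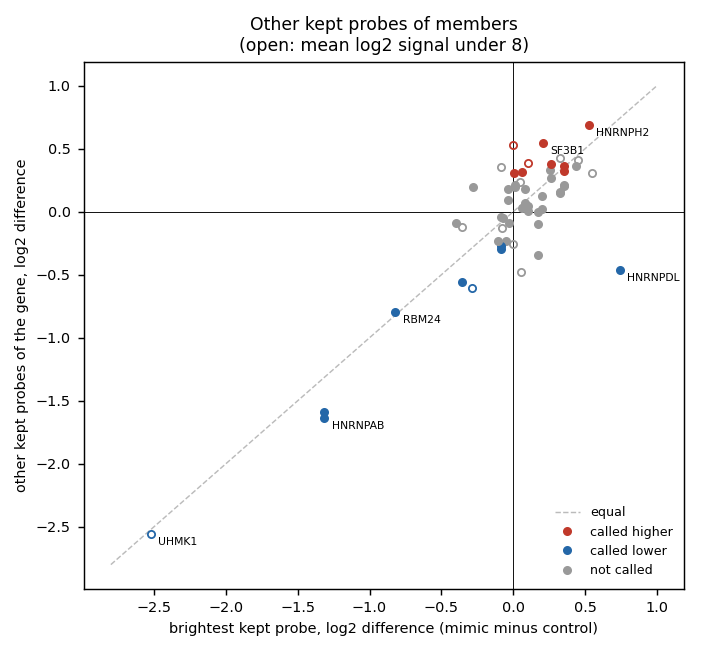
Log2 difference, mimic minus control, of each of the 55 further kept probes of members (vertical) against that of the brightest kept probe of the gene (horizontal), coloured by the call of the further probe. Open points average under log2 8, the dashed line marks equal values, and HNRNPDL, at 0.74 and -0.46, lies far from it.

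Splicing genes that the name rule leaves out gave counts of the same order. Of 108 measured from 125 listed, 19 rose, 11 fell and 78 did not pass, which is 27.8% called against 38.0% of all genes. Their median difference was 0.05. Without control 1, control 2, mimic 1 and mimic 2 in turn, 9, 7, 5 and 4 were higher and 7, 9, 6 and 7 lower, and with median scaling 8 were higher and 10 lower.

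Among further regulators of splice site choice, 6 of 33 fell, 5 rose and 22 did not pass. The called share was 33.3%, against 38.0% of all genes. SFPQ, a paraspeckle protein, had 9.98 and 10.42 with the control and 8.70 and 8.74 with the mimic and fell by 1.48 ± 0.16. PTBP3, a polypyrimidine tract binding protein, had 13.78 and 13.69 against 12.41 and 12.44 and fell by 1.31 ± 0.07, and its second probe fell by 1.35 ± 0.07. PTBP2, the neuronal relative, had 9.71 and 9.64 against 10.04 and 10.22 and rose by 0.46 ± 0.09, a call lost without control 1, control 2 or mimic 2 (limma adjusted p up to 0.0935). PTBP1, named after its values were seen, differed by 0.11 and did not pass (limma adjusted p = 0.259).

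The SMN complex and its partners assemble Sm rings on snRNAs. Of 10 measured genes, 3 fell, 2 rose and 5 did not pass, so 50% were called against 38.0% of all genes. PRMT5, which methylates Sm proteins, had 11.85 and 11.89 against 10.73 and 10.82 and fell by 1.09 ± 0.08, with 1.08 ± 0.10 for its second probe. GEMIN2, which holds the Sm proteins, fell by 0.49 ± 0.08, with limma adjusted p = 0.0663 without mimic 1. GEMIN8 rose by 0.57 ± 0.10, a call lost without mimic 1 (limma adjusted p = 0.0854) and mimic 2 (0.0639). STRAP rose by 0.25 ± 0.07, a call lost whichever of the 4 arrays was left out (limma adjusted p up to 0.179).

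Of 8 LSM genes, 3 rose and 5 did not pass, so 37.5% were called against 38.0% of all genes. LSM proteins form rings like those of Sm proteins. LSM8, of the nuclear ring on U6 snRNA, had 7.53 and 7.63 against 8.47 and 8.59 and rose by 0.96 ± 0.09, while LSM3 rose by 0.28 ± 0.07 and lost its call whichever of the 4 arrays was left out (limma adjusted p up to 0.159). Of 8 exon junction complex genes, 3 rose, 1 fell and 4 did not pass, so 50% were called against 38.0% of all genes. SAP18, at 7.60 and 7.86 against 8.62 and 8.70, rose by 0.93 ± 0.11. MAGOHB, a core subunit, had 7.11 and 7.14 against 7.99 and 8.06 and rose by 0.90 ± 0.07. MAGOHB averaged 7.57 over the 4 arrays, so its size rests on a level near background. PNN fell by 0.40 ± 0.11. PNN lost its call, but not its sign, without control 1, mimic 1 or mimic 2 (limma adjusted p up to 0.177). PRP19-related complexes join the spliceosome as it becomes active. Of 15 such genes, 5 rose and 10 did not pass, so 33.3% were called against 38.0% of all genes. ISY1 rose by 0.42 ± 0.10 and SYF2 by 0.35 ± 0.07. The ISY1 call was lost without control 2, mimic 1 or mimic 2 (limma adjusted p up to 0.129) and that of SYF2 whichever of the 4 arrays was left out (up to 0.121).

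A list of 14 further snRNP genes held proteins of U5 and U4/U6.U5, the helicases DDX23 and SNRNP200 among them, and of the minor U11/U12 particle (SNRNP25, SNRNP35, SNRNP48 and PDCD7). Of these, 1 rose, 1 fell and 12 did not pass, so 14.3% were called against 38.0% of all genes. SNU13, which binds U4 snRNA, had 11.93 and 11.87 against 11.27 and 11.28 and fell by 0.62 ± 0.07. DDX23, the helicase that frees the 5′ splice site from U1, rose by 0.38 ± 0.08, a call lost without control 1, mimic 1 or mimic 2 (limma adjusted p up to 0.118). Of 12 spliceosomal helicases listed apart from DDX23 and SNRNP200, 0 passed in limma, with values from -0.22 to 0.42, and 2 had an unadjusted p under 0.05. Of 8 CLK and other splicing kinases, 0 passed in limma, with values from -0.26 to 0.19, and 1 had an unadjusted p under 0.05. Among all genes, 38.0% passed.

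**Figure D5:**
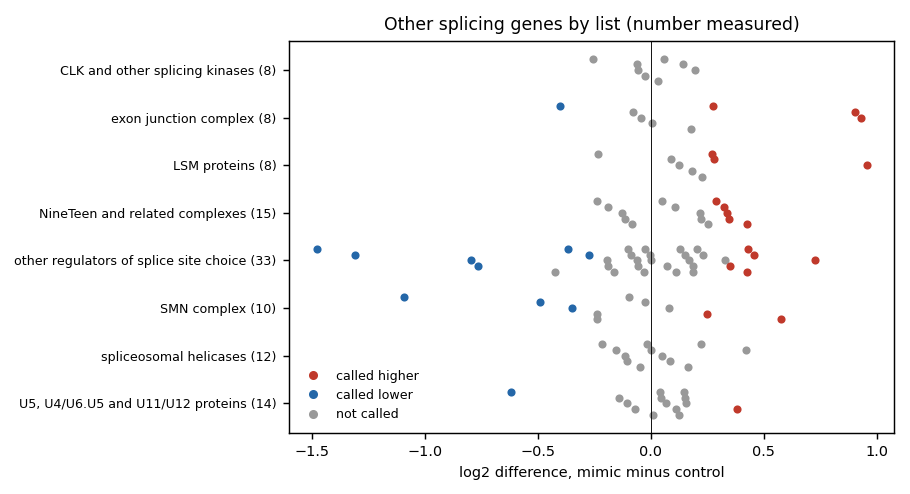
Log2 difference, mimic minus control, of 108 splicing genes outside the name rule, by list, with the number measured in brackets and colour for the call. SFPQ at -1.48, PTBP3 at -1.31 and PRMT5 at -1.09 lie lowest, and LSM8 at 0.96 lies highest.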

How the data were processed

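The authors deposited linear probe intensity values without normalization between arrays, with a detection p-value for each probe and array; the submitters' processing notes name GenomeStudio 2009.2. The authors also deposited processed log2 values, with the same quantiles on every array; no step behind them is stated here, and they served as an alternative. Arrays were mapped to groups by their titles.

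With limma 3.58.1 in R 4.3.3, neqc estimated background through the detection p-values, and its offset of 16, quantile normalization and log2 followed. Of 47320 probes, 16561 were detected at p under 0.01 on at least 2 arrays. Probes took gene names from the platform annotation, updated by gene ID through the gene table of GRCh38.p14 (30074 of 30113 matched), and gene positions are left out since the array files state no build. The brightest kept probe represented each of 10239 genes. Groups were compared with lmFit and eBayes (2 residual and 2.65 prior degrees of freedom), two-sided, with Benjamini-Hochberg adjustment over genes, and the fit was tested on simulated data. The labels give no slide or scan date, so no batch was tested.

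The members, lists and tests were chosen with earlier results of these data known. The text names the SF1, U2AF and kinase genes, up to 3 higher and 3 lower called members per role, members whose probes differ or that lie at background, and up to 2 called genes each way per other list. Alternatives covered background, scaling, filters, probe choice, variance, replicate block, gene synonyms and each array left out. Figures were drawn with matplotlib 3.10.9.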

Additional observations from a re-analysis of the deposited data

How the results depend on the processing

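All 32 called members that an alternative tested kept their sign under each of 14 alternatives, 1 of which, the variance shrunk over all kept probes, was chosen after seeing the data. Without a filter on dim probes, 8 members were higher and 8 lower, and 5 other splicing genes higher and 7 lower; more genes entered the adjustment. With median scaling, 11 members and 8 other splicing genes were higher. With trend and robust variance, 17 other splicing genes were lower. With an array left out, which leaves its group with 1 array assumed to vary like the other group, members called higher numbered 6 to 12 and lower 7 to 10, and other splicing genes 4 to 9 and 6 to 9. The cause of the other changes was not tested. The same-numbered arrays did not deviate together (correlation -0.06 across genes). With 2 arrays a group, this value cannot tell whether the numbers mark pairs. With the replicate block, 14 members were higher and 10 lower, and 10 and 8 other splicing genes. With synonyms of the symbols also searched, 146 genes qualified, of which 25 were higher and 14 lower. In the same fit, 20.1% of all genes were higher and 17.8% lower. For settings that refit the data, the called share of all genes is not given here. Counts of members and other splicing genes under those settings therefore cannot be read as particular to these genes. The median log2 difference of the members ran from -0.04 (median scaling) to 0.06 (without mimic 1). With 2 arrays a group, precision is limited by their number.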
